A study of Mus musculus with 6 samples.

Results

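The 6 genes described here, Tap1, Tap2, Tapbp, Tapbpl, Erap1 and Nlrc5, serve the loading of peptides onto MHC class I molecules. They were chosen by gene symbol, and all 6 were found among the 22186 genes of the deposited table. The cells were primary ADSCs (adipose-derived stromal cells, fibroblast-like cells grown out of fat) of wild-type mice, and their RNA was sequenced. The control group (n = 3 libraries) is labelled only as control, and the other group (n = 3) was the same kind of cell kept for 48 h with regulatory T cells (Treg). The sources used here do not say whether the cells touched, how T cells were removed, or whether replicates came from separate animals or cultures. The p-values therefore set the group difference only against the variation between these libraries, which may be technical. With no co-culture with another cell type among the groups, an effect of Treg and one of co-culture as such cannot be told apart.

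MHC class I molecules carry short peptides to the cell surface, where CD8+ T cells read them. Tap1 and Tap2 encode the subunits of the ABC transporter that pumps peptides from the cytosol into the endoplasmic reticulum. Tapbp encodes tapasin, which bridges this transporter to empty class I molecules, and Tapbpl encodes the tapasin relative TAPBPR, which edits the bound peptide without the transporter. Erap1 encodes an aminopeptidase that trims peptides inside the endoplasmic reticulum. Nlrc5 encodes a transactivator that enters the nucleus and drives class I genes together with DNA-bound factors. Interferons are known to raise these transcripts in many cell types.

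Levels are in TPM, which corrects reads for gene length and scales each library to 1000000, so different genes can be compared by level. The unit keeps no sequencing depth, and counting error cannot be given. Treg co-culture 1 stood apart from the other libraries in 7 transcripts of adult heart and liver, whose summed level was 108 TPM there and at most 2.08 TPM elsewhere. Its part in the results was not tested beyond refitting without it, which is given below for the peptide loading genes. The T cell genes Cd3d, Cd3e, Cd3g, Cd2, Cd4, Cd5, Il2ra and Ctla4 were listed at 0 in all 6 libraries. The summed level of all 12 T cell markers was 3.05 to 3.58 TPM in controls and 3.30 to 3.81 TPM in co-culture, most of it from Ikzf2 and Lck. The adipose stromal markers Col1a1 (6705 ± 317 TPM in controls, mean ± SD, n = 3) and Itgb1 (1057 ± 25.3 TPM) were abundant.

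Tapasin, the TAP1 subunit and the trimming enzyme ERAP1 had lower transcript levels after Treg co-culture, by 21.1% to 27.8% of the control mean. Nlrc5, a very low transcript, was 40.9% below its control mean. Tap2 and Tapbpl differed by less than 9% of the control mean, within the spread between libraries. In bulk RNA, fewer cells of a type and less RNA per cell cannot be told apart. In limma, fitted on log2(TPM + 1) for the 12405 genes whose mean reached 1 TPM, 3 of the 5 peptide loading genes tested were lower at a Benjamini-Hochberg adjusted p under 0.05. None was higher, nor was any higher at an unadjusted p under 0.05. Among all genes tested, 18.0% were lower by the same rule, 19.8% were higher, and the median log2 fold change was 0.0015 against -0.32 for the 5 genes. In the TPM values, every co-culture library lay below every control for 4 of the 6 genes and above for none. Of the 16952 genes above 0 in any library, 18.8% lay wholly lower in this way.

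**Figure D1:**
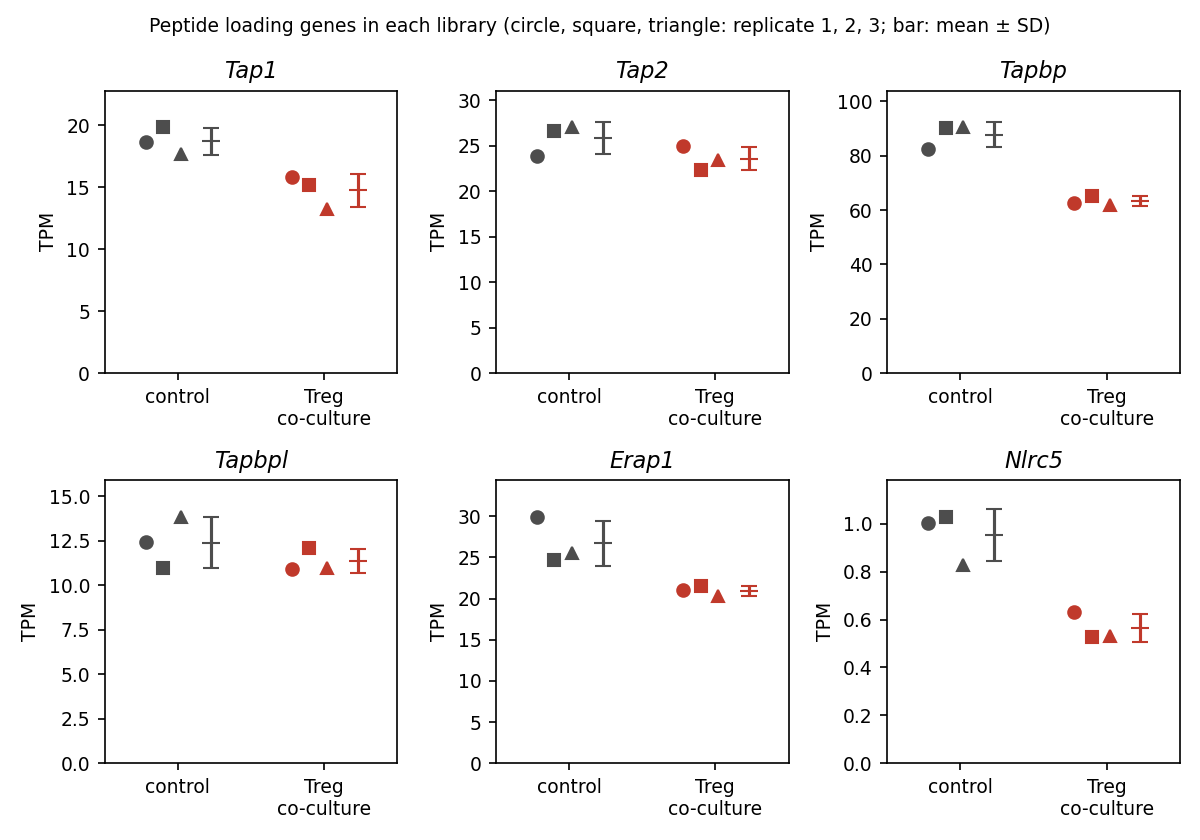
TPM of each peptide loading gene (vertical axes, each from 0) in the control and Treg co-culture libraries. Symbols mark replicates 1, 2 and 3 and bars give the mean ± SD (n = 3). The groups do not overlap for Tap1, Tapbp, Erap1 and Nlrc5 and do overlap for Tap2 and Tapbpl.

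Promoter windows from 250 bases before to 50 bases after a gene's start were found in RefSeq (build GRCm38.p6) for 3 of the 6 genes, and these are the 3 genes called lower in the main fit. They are shown because interferon and class I factors act through short DNA elements near the start, which can be looked for in these letters. Both strands were searched for the interferon-stimulated response element core (GAAA, any 2 bases, GAAA), the gamma-activated site core TTCNNNGAA, the CCAAT box CCAAT and the X2 box core TGACG, and capitals mark every match. The windows lie on the plus strand at chr17:34187306-34187605 (Tap1), chr17:33919228-33919527 (Tapbp) and chr13:74639603-74639902 (Erap1).
Tap1: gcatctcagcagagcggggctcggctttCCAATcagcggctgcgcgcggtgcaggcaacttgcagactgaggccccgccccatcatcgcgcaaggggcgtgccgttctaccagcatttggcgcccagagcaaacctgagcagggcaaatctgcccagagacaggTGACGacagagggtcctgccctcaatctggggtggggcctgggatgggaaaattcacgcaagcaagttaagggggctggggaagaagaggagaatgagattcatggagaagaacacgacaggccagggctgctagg
Tapbp: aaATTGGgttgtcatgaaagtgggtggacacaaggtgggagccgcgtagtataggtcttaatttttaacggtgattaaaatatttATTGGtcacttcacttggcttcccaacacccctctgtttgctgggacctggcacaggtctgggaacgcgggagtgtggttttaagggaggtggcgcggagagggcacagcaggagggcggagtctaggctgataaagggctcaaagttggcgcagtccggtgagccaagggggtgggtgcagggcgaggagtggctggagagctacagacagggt
Erap1: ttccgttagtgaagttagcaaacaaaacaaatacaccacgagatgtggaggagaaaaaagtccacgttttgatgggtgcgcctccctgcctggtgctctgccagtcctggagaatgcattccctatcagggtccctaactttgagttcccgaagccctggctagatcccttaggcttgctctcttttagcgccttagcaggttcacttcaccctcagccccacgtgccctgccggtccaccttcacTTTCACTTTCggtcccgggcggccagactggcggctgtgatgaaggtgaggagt
The Erap1 window held the only match to the interferon-stimulated response element core among the 3. The motif lies on the opposite strand and so appears in the printed letters as TTTCACTTTC. This match begins 4 bases before the start and spans it. Of 32851 such windows in the RefSeq table, 3.44% held this motif. The Tap1 window held CCAAT (222 bases before the start) and TGACG (86 bases before), which 37.4% and 20.8% of all windows hold, and the Tapbp window held CCAAT on the opposite strand at 248 and 165 bases before the start. TTCNNNGAA was in none of the 3, against 8.30% of all windows. The motifs did not overlap each other in these windows, and a match is a run of letters, not a measured binding site.

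Tapbp was the most abundant of the 6 genes and the one with the smallest adjusted p. Its level was 82.6, 90.3 and 90.5 TPM in controls 1 to 3 and 62.8, 65.3 and 61.9 TPM in Treg co-culture 1 to 3. Every control library was above every co-culture library, and the gap between the groups was wider than the spread within either. The mean fell 1.39-fold, from 87.8 ± 4.51 to 63.3 ± 1.78 TPM (mean ± SD, n = 3 each). On the log2(TPM + 1) scale Tapbp fell by 0.46 (SE 0.05, limma adjusted p = 2.92e-05). Of all genes tested, 5.09% had a more negative log2 fold change.

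The proteins of Tap1 and Tap2 form the transporter only as a pair. Tap1 stood at 18.6, 19.8 and 17.7 TPM in controls and 15.8, 15.2 and 13.3 TPM in co-culture. The groups did not overlap, but the lowest control and the highest co-culture library were close. Tap1 fell by 0.32 on the log2(TPM + 1) scale (SE 0.08, limma adjusted p = 0.0097). Tap2 stood at 23.8, 26.6 and 27.0 TPM in controls and 25.0, 22.4 and 23.4 TPM in co-culture. Control 1 lay below Treg co-culture 1, so the groups overlapped. The log2 fold change of Tap2 was -0.13 with a 95% interval from -0.28 to 0.02 (limma adjusted p = 0.172), an interval that still holds falls of nearly the size seen in Tap1.

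The ratio of Tap1 to Tap2 was 0.780, 0.744 and 0.653 in controls and 0.634, 0.678 and 0.566 after co-culture. These groups overlapped, and the log2 ratio had a two-sided exact permutation p of 0.2, or 0.429 adjusted over the 15 pairs of the 6 genes. A difference in response between the transporter subunits was thus not shown. With 3 libraries against 3, this test cannot go below 0.1.

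Tapbpl, the tapasin relative, showed no change beyond its spread. It stood at 12.4, 11.0 and 13.8 TPM in controls and 10.9, 12.1 and 11.0 TPM in co-culture, and the libraries of both groups were interleaved. The log2 fold change of Tapbpl was -0.11 with a 95% interval from -0.32 to 0.09 (limma adjusted p = 0.364). The ratio of Tapbp to Tapbpl was 6.66, 8.23 and 6.55 in controls and 5.75, 5.39 and 5.64 after co-culture. Every control ratio was higher than every co-culture ratio, with an exact two-sided permutation p of 0.1 (0.429 adjusted over 15 pairs), the smallest that the design allows.

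The ratio of Tap2 to Tapbp was the other of 2 among 15 ratios whose groups did not overlap on the log2(TPM + 1) scale. It was 0.289, 0.295 and 0.299 in controls and 0.397, 0.343 and 0.379 after co-culture. The control ratios were close together, and the co-culture ratios all lay higher. The exact two-sided permutation p was again 0.1, and 0.429 adjusted. Both of these ratios include Tapbp. With no difference at all, a share of 0.1 of ratios would separate in either direction, and 2 of 15 is near that share. Tap1 and Tapbp, which both fell, kept ratios that overlapped between the groups (0.195 to 0.225 in controls and 0.214 to 0.252 after co-culture). Leaving out single libraries gave between 2 and 7 ratios that did not overlap, 4 without Treg co-culture 1 or 3 or control 1, 6 without Treg co-culture 2 and 7 without control 3. Smaller groups separate more easily, so these counts cannot be compared with that of the full groups.

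**Figure D2:**
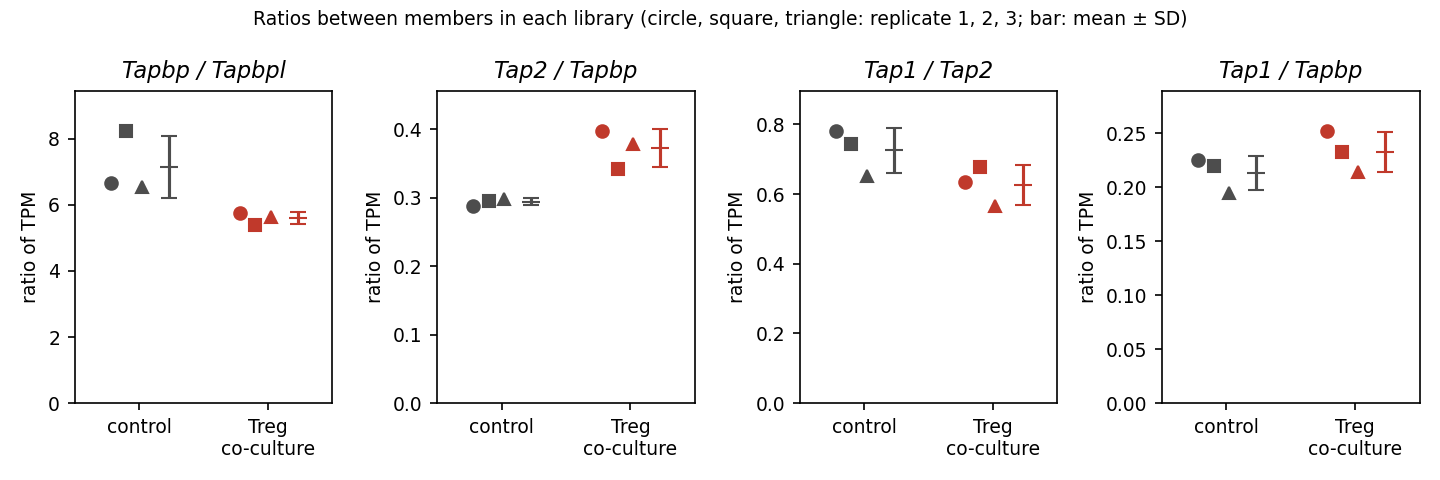
Ratio of the TPM of 2 peptide loading genes (vertical axes, each from 0) in each control and Treg co-culture library, with symbols for replicates 1 to 3 and the mean ± SD (n = 3). Tapbp / Tapbpl was at least 6.55 in controls and at most 5.75 after co-culture, Tap2 / Tapbp at most 0.299 and at least 0.343, and the other 2 ratios overlap.

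Erap1 measured 29.9, 24.7 and 25.5 TPM in the 3 controls and 21.1, 21.5 and 20.3 TPM in the 3 co-cultures. The co-culture libraries were tightly grouped below all controls, and control 1 was the highest of the 6. The mean fell 1.27-fold, from 26.7 ± 2.77 to 21.0 ± 0.603 TPM, with a log2 fold change of -0.33 (SE 0.07, limma adjusted p = 0.00581). In the RefSeq table the end of Erap1 overlaps Cast, the calpastatin gene, which is more abundant (143 ± 5.21 TPM in controls and 141 ± 2.23 TPM in co-culture). The sources used here do not say whether counting used strand, so reads in that overlap cannot be told apart. The same holds for Nlrc5, which overlaps 9330175E14Rik, Gm51584 and Mir7072, for Tapbp, which overlaps Gm19412, and for Tapbpl, which overlaps E130112N10Rik. The log2 fold change of Cast was -0.01 (limma adjusted p = 0.775).

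Nlrc5 was the lowest of the 6. Controls had 1.00, 1.03 and 0.830 TPM, and co-cultures had 0.631, 0.528 and 0.532 TPM. Every co-culture library was below every control. Its mean over all 6 libraries, 0.759 TPM, lay below the 1 TPM minimum of the main fit, so it was not tested there. Its two-sided exact permutation p was 0.1, the smallest possible, and 0.15 adjusted over the 6 genes. In the fit without a minimum, where 12.0% of 16952 genes were lower and 13.4% higher, Nlrc5 had a log2 fold change of -0.32 (SE 0.08, limma adjusted p = 0.0269), and 4 of the 6 genes were called lower. The mean TPM was 1.69-fold lower, and the added 1 TPM hides part of this: the difference was -0.67 with a pseudocount of 0.1 and -0.75 with 0.01. With either smaller pseudocount, the ratios of Tap1, Tap2, Tapbpl and Erap1 to Nlrc5 no longer overlapped between groups. The plain ratio of Tap2 to Nlrc5, for example, was 23.8 to 32.6 in controls and 39.5 to 44.0 after co-culture. The ratio of Tapbp to Nlrc5 still overlapped (82.2 to 109 in controls and 99.5 to 124 after co-culture). All of these ratios share the very low Nlrc5, and an exact permutation p for them cannot go below 0.1. A larger fall of Nlrc5 than of the other genes was thus not shown.

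Ordered by level, Tapbp led in both groups, 3.29-fold above the next gene in controls and 2.69-fold after co-culture. Erap1 and Tap2 followed in controls with ranges that overlapped, so their order there is not settled. After co-culture Tap2 (22.4 to 25.0 TPM) lay above Erap1 (20.3 to 21.5 TPM) without overlap. In controls 2 and 3 Tap2 also lay above Erap1, and only control 1 had the reverse. The ratio of Tap2 to Erap1 overlapped between the groups (exact two-sided permutation p = 0.3, 0.45 adjusted over 15 pairs). A change in their order was thus not shown. Tap1 and Tapbpl came next in both groups without overlap. Nlrc5 was last, with a mean 13.0-fold below Tapbpl in controls and 20.1-fold below it after co-culture.

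The labels assign libraries of the same number to the same batch, which gives 1 control and 1 co-culture library per batch. Within batches 1, 2 and 3 the co-culture minus control difference on the log2(TPM + 1) scale was -0.39, -0.46 and -0.54 for Tapbp. For Tap1 it was -0.22, -0.36 and -0.39. For Erap1 it was -0.48, -0.19 and -0.32. All 3 differences were negative for each of these genes, as they were for Nlrc5 (-0.30, -0.41 and -0.26). For these genes and Nlrc5 every co-culture library lay below every control, so any pairing would give only negative differences. The signs therefore add nothing to that separation. Tap2 was slightly higher after co-culture in batch 1 (0.06) and lower in batches 2 and 3 (-0.24 and -0.20). Tapbpl was higher in batch 2 (0.13) and lower in batches 1 and 3 (-0.17 and -0.31). Without Treg co-culture 1, the log2 fold changes were -0.46 for Tapbp (limma adjusted p = 0.000182), -0.37 for Tap1 (0.0106) and -0.33 for Erap1 (0.017). Nlrc5 then differed by -0.35, and Tap2 (-0.17, adjusted p = 0.125) and Tapbpl (-0.09, 0.568) still did not pass.

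On chromosome 17 the RefSeq table lists Psmb9, Tap1, Psmb8 and Tap2 as direct neighbours in this order. Psmb9 and Psmb8 encode catalytic subunits of the immunoproteasome, which cuts the peptides that TAP then transports. The promoter windows of Psmb9 and Tap1, whose genes point away from each other, share 275 of their 300 bases. Psmb9 went from 3.08, 3.75 and 3.75 TPM to 1.26, 2.50 and 1.66 TPM, with no overlap. On the log2(TPM + 1) scale Psmb9 fell by 0.71 (SE 0.17, limma adjusted p = 0.00908), so both genes of the shared window fell. Psmb8 stood at 13.3, 9.55 and 14.7 TPM in controls and 9.54, 14.0 and 11.9 TPM in co-culture, with groups that overlapped (log2 fold change -0.07, limma adjusted p = 0.760). Its log2 fold change was 0.047 without control 3, 0.064 without Treg co-culture 1 and -0.24 without control 2. With batch as a replicate block and batch 2 left out it was -0.36, and Psmb8 passed (limma adjusted p = 0.0346). A difference in change between the genes of this cluster was not tested, other than that of Tap1 and Tap2 above.

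**Figure D3:**
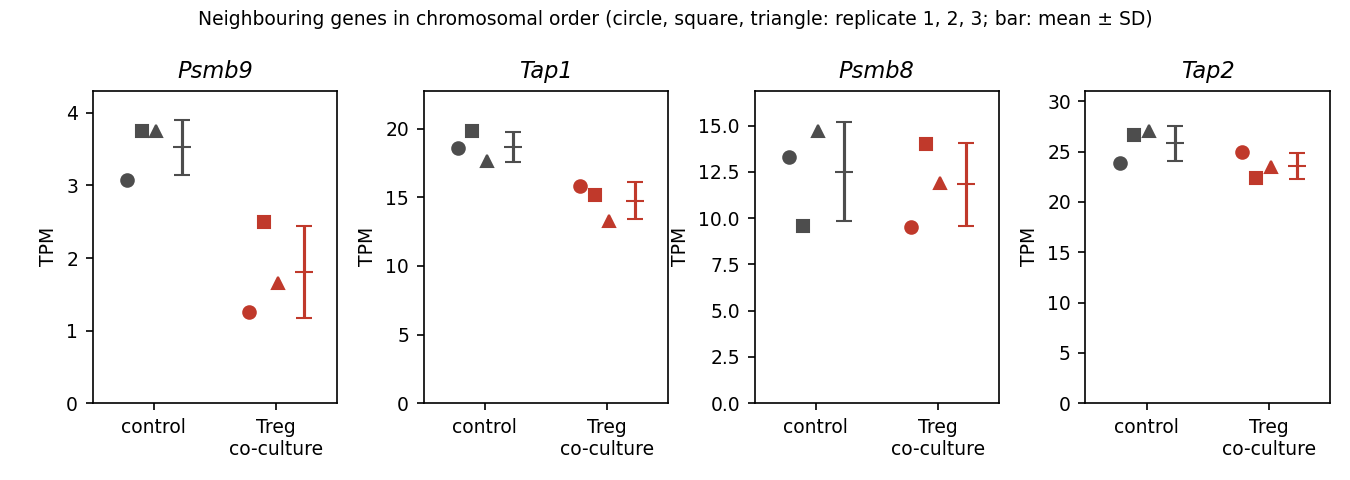
TPM (vertical axes, each from 0) of 4 neighbouring genes of chromosome 17 in the control and Treg co-culture libraries, with symbols for replicates 1 to 3 and the mean ± SD (n = 3). The co-culture libraries lie below all controls for Psmb9 and Tap1, and the groups overlap for Psmb8 and Tap2.

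Most genes of the class I molecules that the loading genes serve were also lower. Of 8 heavy and light chain genes tested, 6 were called lower, against 18.0% of all genes tested, and the list median was -0.37. None was called higher, also at an unadjusted p under 0.05 in limma. H2-T24, named after its value was seen, lay higher in every co-culture library than in every control. Its log2 fold change of 0.13 did not pass (limma adjusted p = 0.343). B2m, the invariant light chain, went from 1088 ± 13.4 to 818 ± 33.3 TPM, and the nonclassical heavy chain H2-T23 from 44.4 ± 3.40 to 30.1 ± 0.898 TPM. The classical chains H2-K1 and H2-D1 had log2 fold changes of -0.43 and -0.40, next to -0.46 for Tapbp. Heavy chain genes are similar in sequence, and the sources used here do not say how shared reads were assigned, which leaves each gene's own value uncertain. Of the 6 calls, that of H2-Q4 (named after its value was seen) was lost without control 2 or 3 or Treg co-culture 2 (limma adjusted p 0.0552 to 0.0588). Of the 5 immunoproteasome and activator genes tested, 2 fell, Psmb9 and the activator subunit Psme1 (80.4 ± 1.26 to 62.6 ± 1.99 TPM). None was higher, also at an unadjusted p under 0.05 in limma, and the median was -0.14. Psme2, the partner of Psme1, had a log2 fold change of -0.14 (limma adjusted p = 0.106), and it passed without Treg co-culture 2 (0.0143).

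The general folding factors of the endoplasmic reticulum that serve class I molecules centred near 0. Of 10 tested, 4 rose and 1 fell, with a median of 0.05. Over all genes tested, 19.8% rose and 18.0% fell. Calreticulin (Calr) and the oxidoreductase Pdia3, both part of the peptide loading complex beside tapasin, had log2 fold changes of 0.08 (limma adjusted p = 0.00623) and 0.06 (0.0282). Calr went from 1381 ± 10.6 to 1462 ± 27.5 TPM, but its call was lost under quantile normalization (log2 fold change 0.03, limma adjusted p = 0.258), with eBayes without trend (0.141) and with the replicate block without batch 2 (0.0739). The chaperone Hspa5 (0.28) and the glucosidase Mogs (0.28), which trims new glycans, were the other 2 that rose. Bcap31, an export factor of this compartment named after its value was seen, was the 1 that fell (-0.08). Without single libraries the Pdia3 call was lost in 4 of 6 cases (without control 2 or 3 or Treg co-culture 2 or 3; adjusted p 0.0691 to 0.116), and the fall of Bcap31 in 5 of 6 (all but control 2; adjusted p 0.0525 to 0.0925).

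Of 9 peptide trimming enzymes tested other than Erap1, 3 rose and 1 fell, with a median of 0.04. The shares over all genes tested were 19.8% and 18.0%. The cytosolic peptidases Thop1 (28.2 ± 3.05 to 38.7 ± 1.01 TPM), Lap3 (66.1 ± 1.54 to 80.3 ± 3.76 TPM) and Prep (78.4 ± 2.72 to 93.9 ± 1.40 TPM) rose. The cytosolic aminopeptidase Npepps fell by 0.12 on the log2 scale. That call was lost without control 1 or 3 or Treg co-culture 1 or 3 (limma adjusted p 0.0670 to 0.0862). Lnpep, the closest relative of Erap1 in this list, which trims peptides in endosomes and was named after its value was seen, stood at 59.0 ± 0.976 TPM in controls and 58.9 ± 1.86 TPM in co-culture.

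Nlrc5 binds no DNA by itself and acts through the RFX complex, CREB and ATF factors and NF-Y. Of 8 such genes tested, 2 fell and 1 rose, with a median of -0.03, against 18.0% and 19.8% of all genes tested. The RFX subunits Rfx5 (12.1 ± 1.21 to 9.27 ± 0.691 TPM, log2 fold change -0.35) and Rfxank (6.00 ± 0.345 to 4.70 ± 0.260 TPM, -0.30) were the 2 lower genes. The Rfx5 call was lost without control 3 or Treg co-culture 2 (limma adjusted p 0.0539 to 0.0573), and the Rfxank call with batch as a replicate block (0.057) or without any 1 library other than control 3 (0.0554 to 0.113). The NF-Y subunit Nfyc rose by 0.21 with groups that overlapped, and lost its call without control 1 or 2 or Treg co-culture 1 or 3 (0.0863 to 0.144). Nfyb had a log2 fold change of 0.14 (limma adjusted p = 0.143). Ciita, the class II counterpart of Nlrc5, was at most 0.152 TPM in any library.

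Of the 8 tested genes on the route from the interferon-gamma receptor to Nlrc5, 3 fell and 1 rose, with a median of -0.12. Over all genes tested, 18.0% fell and 19.8% rose. Among those that fell, the kinase Jak1 went from 279 ± 4.48 to 245 ± 3.29 TPM and the receptor chain Ifngr2 from 103 ± 4.08 to 92.4 ± 3.66 TPM. The Ifngr2 call was lost without control 3 (limma adjusted p = 0.0517). Socs1, a feedback inhibitor of this route, rose from 3.38 ± 1.12 to 5.28 ± 0.954 TPM with groups that overlapped, and lost its call without control 1 or 3 or Treg co-culture 1 or 2 (0.0824 to 0.153). Irf1, a factor known to induce Tap1 and Psmb9 and named after its value was seen, had a log2 fold change of -0.01 (limma adjusted p = 0.904).

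Sequence relatives of the 6 genes showed no common direction. Of 13 tested, 3 fell and 1 rose, with a median of 0.03, against 18.0% and 19.8% of all genes tested. The surface aminopeptidases Anpep (68.3 ± 1.34 to 38.5 ± 1.41 TPM) and Enpep (5.97 ± 0.772 to 3.84 ± 0.281 TPM), of the same enzyme family as Erap1, fell further than Erap1 itself in log2 fold change (-0.81 and -0.52), a difference that was not tested. Nod1, a cytosolic sensor of the NLR family to which Nlrc5 belongs, fell by 0.26, a call lost without control 2 or 3 or Treg co-culture 1 (limma adjusted p 0.0584 to 0.0680). The drug efflux transporter Abcb1b, an ABC transporter like Tap1 and Tap2, rose by 0.39. Abcb9, the TAP-like transporter gene, named after its value was seen, had a log2 fold change of -0.12 (limma adjusted p = 0.623).

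**Figure D4:**
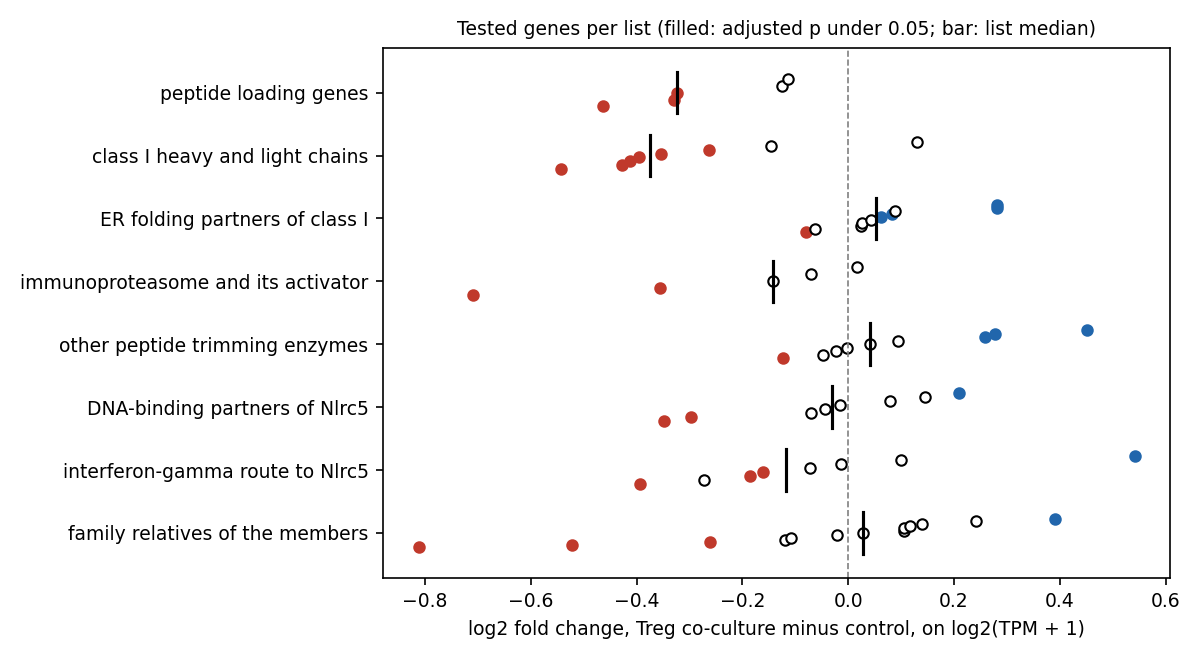
Log2 fold change of each tested gene (horizontal axis, Treg co-culture minus control on log2(TPM + 1)), by list. Filled points passed an adjusted p of 0.05 in limma (red lower, blue higher), open points did not, and black bars mark list medians. The peptide loading genes and the class I chains lie mostly below 0, with medians of -0.32 and -0.37, and the folding partners centre near 0.

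Markers of other cell types moved with these results in part. The summed level of 12 macrophage markers was 100 to 107 TPM in controls and 73.7 to 86.2 TPM in co-culture, carried by Lyz2 (65.9 ± 4.18 to 44.7 ± 6.26 TPM), the 1 of 9 tested that fell. The list median was -0.28, against -0.32 for the tested peptide loading genes. Adgre1, C1qa and C1qb (named after their values were seen) also lay lower in every co-culture library than in every control. Their log2 fold changes of -0.35, -0.28 and -0.30 did not pass (limma adjusted p 0.115 to 0.169). Of the 16952 genes above 0 in any library, 18.8% lay wholly lower. The groups overlapped for all other macrophage markers except Lyz2. Among these, C1qc had a log2 fold change of -0.07 and Csf1r, higher in the mean, one of 0.19 (limma adjusted p 0.739 and 0.264). Cd68, the most abundant after Lyz2, stood at 12.8 ± 2.24 and 11.0 ± 2.38 TPM. The summed level of 6 endothelial markers was 38.1 to 40.4 TPM in controls and 34.1 to 35.9 TPM in co-culture, where Tek and Cdh5 (named after its value was seen) fell and Kdr rose, a call lost on leaving out any 1 library (limma adjusted p 0.0535 to 0.0932). The median of the 5 endothelial markers tested was -0.31. Dendritic and B cell markers summed to at most 1.06 TPM in any library, with Itgax and Xcr1 the highest in mean over all 6 libraries (0.395 ± 0.167 and 0.0910 ± 0.0265 TPM in controls, 0.178 ± 0.0210 and 0.232 ± 0.0248 TPM in co-culture), and Flt3, Cd79b and Ms4a1 were listed at 0 in all 6. Of 11 adipose stromal markers tested 7 fell and 3 rose, against 18.0% and 19.8% of all genes tested. Their median was -0.11, with log2 fold changes of -0.17 for Col1a1 and 0.08 for Itgb1. Pdgfra, Cd34 and Cd44 (named after their values were seen) had log2 fold changes of -0.45, -0.47 and 0.58. The part of these cell types in the lower peptide loading transcripts was not tested.

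For each tested peptide loading gene, the 2 genes with the most similar profile were sought by Pearson correlation of log2(TPM + 1) over the 6 libraries, among 12077 candidates. The libraries fall into 2 groups, so genes that changed strongly tend to correlate with each other, and no test is attached. With only 6 libraries, the best of 12077 candidates can also correlate highly through selection alone. This includes the partners of Tap2 and Tapbpl, which were not called. Tapbp was most like Ksr1 (r = 0.999), which went from 19.6 to 12.8 TPM in the mean, and Sgk1 (r = 0.999). Tap1 was most like Spon1 (r = 0.994) and Ifi35 (r = 0.988), an interferon-induced gene that went from 25.0 to 20.3 TPM. Erap1 was most like Tcaf1 (r = 0.999) and Nr3c1 (r = 0.991), the glucocorticoid receptor gene, which went from 63.2 to 51.2 TPM. Tap2 was most like Fbxw9 and Serf1 (r = 0.995 and 0.994), and Tapbpl most like Ptgfrn and Bnc2 (r = 0.995 and 0.988).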

How the data were processed

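The authors deposited 1 table of TPM values (length-corrected transcript shares), with NCBI Gene numbers as rows and libraries as columns, which keeps no sequencing depth. GRCm38, GRCm39 and mm10 are listed in the submitters' processing notes without saying which served what. The sources used here give no aligner, counter or annotation. Per the labels' protocols, messenger RNA was captured on beads and broken by heat. A symbol of the RefSeq gene table (GRCm38.p6, names and gene order only) was found for 21992 of the 22186 rows.

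Computed here were log2(TPM + 1) values, limma fits (3.58.1 in R 4.3.3, trended eBayes, no block) over the 12405 genes whose mean reached 1 TPM, Benjamini-Hochberg adjustment over all of them with a threshold of 0.05, and exact permutation tests over 20 arrangements (scipy 1.17.1, Python 3.11.15). Errors are SD over libraries or limma's SE. The fit was checked on simulated data. No 2 columns were identical.

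The genes and lists were chosen with earlier results of these data known. The 6 genes were named throughout, with up to 4 genes per pathway list of lowest adjusted p (and B2m, Psmb8 and Psmb9). Also named were the 2 most abundant markers per list of cell type markers and the 2 most similar genes per tested gene. The heart and liver transcripts were given only as a sum. H2-L and H2-T10 of the chain list are not analysed here. A gene that this rule would name is not reported here. Libraries of 1 number share a batch per the labels. As a check of the pairing, the deviations from the group mean had a correlation of 0.0115, -0.0146 and 0.00402 between the control and co-culture library of batches 1, 2 and 3. Between control and co-culture libraries of different batches it ran from -0.0606 to 0.0653. Libraries of the same batch were thus not more alike by this measure. Alternatives were pseudocounts of 0.1 and 0.01, no minimum or 5 TPM, 3 other scalings, eBayes without trend or robust, batch as a block, and each library or batch left out.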

Additional observations from a re-analysis of the deposited data

How the results depend on the processing

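The calls of Tapbp, Tap1 and Erap1 held in all 19 alternative fits, with the log2 fold change between -0.51 and -0.43, -0.38 and -0.25, and -0.40 and -0.25. Tap2 (-0.22 to -0.07) and Tapbpl (-0.24 to -0.02) were called in none. With batch as a replicate block the number of peptide loading genes called lower was 3, as in the fit without it, and the block changed no call named in the report other than that of Rfxank. Nlrc5, below the minimum, moved to -0.67 and -0.75 with pseudocounts of 0.1 and 0.01, and with both 6 of 15 ratios did not overlap, against 2. Without the mitochondrial and ribosomal protein genes 3 ratios did not overlap. Leaving out single libraries gave 2 to 7, where the smaller groups separate more easily. Quantile normalization, which leaves out Nlrc5, gave 2 of 10 ratios, as in the main analysis. The other counts that moved by over 1.5 times were small. The lower count of folding partners (1) was 0 with eBayes without trend and with the block without batch 1, 2 or 3, and 0 to 1 without single libraries. Their higher count (4) was 2 with eBayes without trend and with the block without batch 2. The lower count of immunoproteasome genes (2) was 1 with a minimum of 5 TPM, which leaves Psmb9 untested, and 4 with the block without batch 2. The lower count of trimming enzymes (1) was 0 with eBayes without trend and with the block without batch 1 or 3, and 0 to 1 without single libraries. Among the partners of Nlrc5, the lower count (2) was 1 with no minimum, with the block and with the block without batch 1 or 2, 0 with the block without batch 3, and 0 to 1 without single libraries. Their higher count (1) was 0 with no minimum, quantile normalization, eBayes without trend and the block without batch 1 or 2, and 0 to 1 without single libraries. The higher count of the interferon-gamma route (1) was 0 with no minimum, 5 TPM, quantile normalization or eBayes without trend, and 0 to 1 without single libraries. The minimum of 5 TPM leaves Socs1 untested. The higher count of sequence relatives (1) was 3 with no minimum. Psmb8 turned to 0.047 without control 3, 0.064 without Treg co-culture 1, and 0.11 and 0.034 with the block without batch 1 and 3, and to -0.36 with the block without batch 2, where it passed. Beyond genes left untested by a minimum, the causes were not tested. Depth is unknown, so no counting error could be given for any gene.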
